A study of Mus musculus with 8 samples.

Results

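The genes described here are Gli1, Gli2, Gli3, Ptch1, Smo, Ihh and Sufu, 7 genes of the Hedgehog pathway out of 22380 protein-coding genes. They were taken by name, and their positions came from the GENCODE vM1 annotation of the mouse genome build mm9. For each gene, open chromatin was read at its start sites, where a peak had its centre within 1000 bases of an annotated transcript start, and in the gene or within 50 kb of it. In all, 291 peaks lay in or within 50 kb of the 7 genes, summed over 7 libraries.

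The assay was ATAC-seq, which maps open chromatin through the adapters that the transposase Tn5 places there. Stromal cells derived from bone marrow were taken from C57BL/6J mice, wild type and 6 weeks old, and all libraries share this genotype, strain, tissue and age. No library had a treatment or allele in its labels, and the number of mice behind a library is not given in the sources used here. The study sorted populations of stromal cells by surface markers, but the labels do not tie a population to a title, so the libraries are called ATAC1 to ATAC7. Each title had 1 library, so no value below has a replicate and no test was made. Intervals cover counting error only. An Input library served as the common control of all peak calls.

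Hedgehog ligands such as Indian hedgehog, the product of Ihh, bind the receptor Patched 1, the product of Ptch1, and so release the membrane protein Smoothened from inhibition. Smoothened signals through the primary cilium to the zinc finger factors Gli1, Gli2 and Gli3, which Sufu holds back in the cytoplasm. Gli2 acts mainly as an activator and Gli3 mainly as a repressor, while Gli1 and Ptch1 are themselves target genes of the pathway. In the skeleton, Indian hedgehog is made chiefly by cartilage cells of the growth plate and acts on neighbouring progenitors of bone.

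The lists held 15188 peaks in ATAC7 to 32280 in ATAC2, 164103 in all, and merged into 50683 regions. Reads in the 8428 regions called in every library ranged from 2561419 in ATAC7 to 5812837 in ATAC6. Each peak came with its rank in the list, its reads in a wider outer region from which it was cut, the Input reads there, and the fold over Input, a ratio of scaled library reads to Input reads. The median fold over Input of a list ranged from 5.77 in ATAC3 to 10.9 in ATAC5, so a fold is read beside the library it comes from. As a check of the label, 3 to 7 of 10 stromal marker genes had a start-site peak in a library, against 1 to 4 of 10 haematopoietic and 0 to 5 of 10 endothelial ones. Ebf3, a transcription factor gene of marrow stroma, had one in all 7 libraries, whereas Ly6a, which encodes Sca-1, Prrx1 and Lepr had none in any. Spi1, a myeloid transcription factor gene, had one in all 7 libraries and Ptprc, the pan-leukocyte gene, in ATAC1, ATAC3, ATAC5 and ATAC7. Peaks of 5 endothelial markers were found in ATAC5 and of 3 in ATAC6, neither above the share over all protein-coding genes of those libraries. Against the share over all protein-coding genes, given below, the stromal markers called in ATAC1 (40%), ATAC3 (30%) and ATAC4 (30%) were fewer, so start-site peaks did not bear out the label in these libraries. The study's methods describe a lineage-negative gate with antibodies to CD31, CD45 and TER119, which would remove endothelial cells, leukocytes and erythroid cells, and the labels do not say which gate a library had. The part of the other cell types in the results below was not tested.

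The 7 stretches below are shown because the description of Ptch1, Gli1, Gli3, Sufu and Ihh turns on them. All are from mm9 in the direction in which the gene is transcribed, and none overlaps an annotated exon. Capitals mark the letters GACCACCCA, the consensus bound by GLI factors, and CCGCCC, the GC box, on either strand.
Ptch1, ATAC5 peak upstream of an inner start site, chr13:63667614-63667753, minus strand: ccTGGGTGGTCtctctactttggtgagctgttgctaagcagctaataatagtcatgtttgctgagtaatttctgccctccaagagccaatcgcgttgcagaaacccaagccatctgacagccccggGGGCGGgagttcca
Ptch1, ATAC2 peak of the intronic region called in every library, chr13:63669138-63669395, minus strand: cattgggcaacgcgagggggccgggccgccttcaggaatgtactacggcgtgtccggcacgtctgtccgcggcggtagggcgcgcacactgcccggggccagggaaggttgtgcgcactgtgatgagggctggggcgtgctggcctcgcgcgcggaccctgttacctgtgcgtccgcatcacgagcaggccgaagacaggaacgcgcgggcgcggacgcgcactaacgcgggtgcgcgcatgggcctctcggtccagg
Gli1, ATAC1 peak upstream of the start site, chr10:126779311-126779541, minus strand: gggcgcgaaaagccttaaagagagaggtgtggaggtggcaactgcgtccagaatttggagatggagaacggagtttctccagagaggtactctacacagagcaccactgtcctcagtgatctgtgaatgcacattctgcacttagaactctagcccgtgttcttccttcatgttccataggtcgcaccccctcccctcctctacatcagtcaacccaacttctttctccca
Gli1, ATAC7 peak of the intronic region called in every library, chr10:126776121-126776404, minus strand: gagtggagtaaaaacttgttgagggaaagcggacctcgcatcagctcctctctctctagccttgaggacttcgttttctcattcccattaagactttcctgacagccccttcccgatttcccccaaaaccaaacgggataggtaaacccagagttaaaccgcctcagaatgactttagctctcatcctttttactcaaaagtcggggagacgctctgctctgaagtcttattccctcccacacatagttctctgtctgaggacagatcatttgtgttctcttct
Gli3, ATAC1 peak just upstream of the first start site, in the stretch without a peak in ATAC6, chr13:15554933-15555049, plus strand: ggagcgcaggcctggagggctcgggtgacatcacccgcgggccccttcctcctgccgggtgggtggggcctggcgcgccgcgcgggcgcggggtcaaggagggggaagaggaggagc
Sufu, the stretch covered by the start-site peaks of the 7 libraries, chr19:46471256-46471379, plus strand: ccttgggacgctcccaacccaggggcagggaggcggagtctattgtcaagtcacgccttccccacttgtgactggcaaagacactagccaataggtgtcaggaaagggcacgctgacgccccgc
Ihh, the middle of the only peak within 50 kb of the gene, chr1:75011746-75011945, given in the direction of Ihh (minus strand): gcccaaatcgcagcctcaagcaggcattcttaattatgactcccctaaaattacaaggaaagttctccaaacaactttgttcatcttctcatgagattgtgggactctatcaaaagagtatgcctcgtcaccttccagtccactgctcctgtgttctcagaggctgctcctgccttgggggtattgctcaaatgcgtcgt

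Ptch1 and Sufu had a start-site peak in all 7 libraries, Gli2 and Gli3 in 6, Gli1 in 5, Smo in 3 and Ihh in none. At a fold of at least 5, Ptch1 and Sufu still had one in all 7, Gli2 and Gli1 in 4, Gli3 in 3 (ATAC2, ATAC5 and ATAC7) and Smo in 1. The libraries with most of the 7 genes were ATAC2 and ATAC5, with 6 each, followed by ATAC1, ATAC6 and ATAC7 with 5 each, ATAC3 with 4 and ATAC4 with 3. Among all protein-coding genes the share with a start-site peak was 50.2% in ATAC2, 52.7% in ATAC5, 49% in ATAC1, 51.5% in ATAC6, 42% in ATAC7, 43.5% in ATAC3 and 43.6% in ATAC4. The count of 3 of 7 in ATAC4 was thus close to the share over all genes, and those of the other 6 libraries lay above it. In all 7 libraries alike, 36.8% of protein-coding genes had a start-site peak, and 43.4% had one in none, so that most genes were called everywhere or nowhere.

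**Figure D1:**
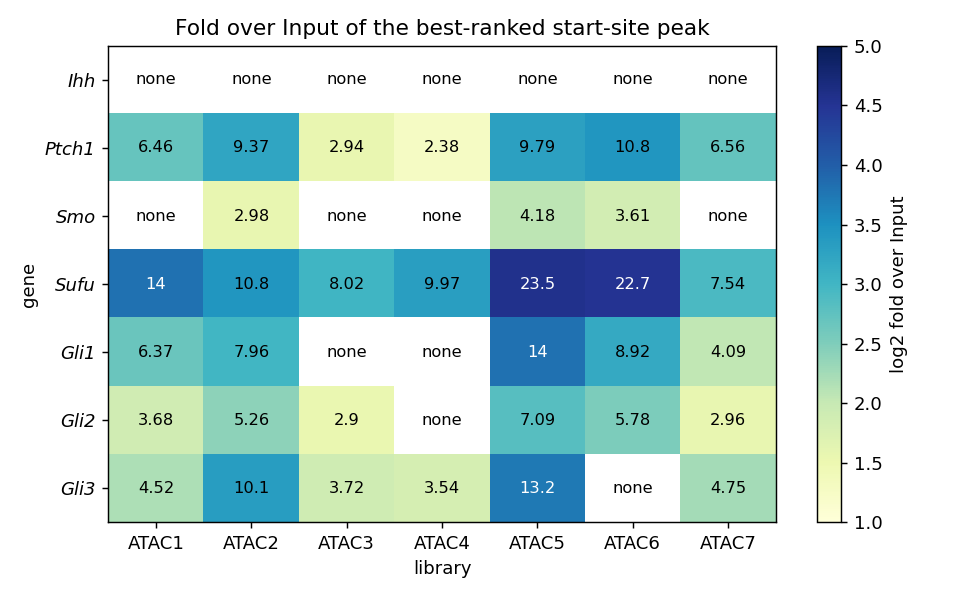
Fold over Input of the best-ranked start-site peak of each gene (rows) in each library (columns), coloured on a log2 scale, with "none" where no peak was called. Sufu and Ptch1 have a value in all 7 libraries, Ihh in none, and Gli3 lacks one in ATAC6 alone.

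Counting the whole gene and 50 kb on either side, peaks were found for all 7 genes in ATAC2, for 5 in ATAC4, where Gli2 and Ihh had none, and for 6 in each of the others, where Ihh had none. The shares of all protein-coding genes with such a peak were 73.7%, 77.4%, 68.5%, 67.8%, 77.6%, 76.5% and 67.9% in ATAC1 to ATAC7. Peaks near the 7 genes numbered 42, 55, 28, 32, 57, 47 and 30 in ATAC1 to ATAC7. They made up between 0.162% of the list in ATAC6 (95% Wilson interval 0.122 to 0.216) and 0.204% in ATAC4 (0.145 to 0.289), and these intervals overlap. The share of a list taken up by the Hedgehog genes thus did not set any library apart beyond counting error.

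Ihh, the ligand gene, lies at chr1:74991891-74998246 on the minus strand (ENSMUSG00000006538.8). It had no peak at its 2 annotated start sites or in its body in any library. Within 50 kb there was 1 peak, chr1:75011684-75012008 in ATAC2, with 102 reads against 17 in Input, a fold of 9.47. It lay 13600 bases from the nearer Ihh start site and 3640 bases from that of the neighbouring gene Nhej1, so its position is closer to Nhej1. The sequence around the Ihh start sites was rich in G and C, at 72.2% over the 1000 bases centred on them, which is above 97.8% of all start sites of protein-coding genes. Its ratio of observed to expected CpG was 0.774, against a median of 0.46 over 70044 start sites. The other ligand genes Shh and Dhh likewise lacked a start-site peak throughout.

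Ptch1, the receptor gene, lies at chr13:63610261-63674474 on the minus strand (ENSMUSG00000021466.5) and has 4 annotated start sites. Its start-site peaks numbered 28 and fell into 9 merged regions, none of which was called in all 7 libraries, so the call in every library joins peaks at different places. Most of them lay around the 2 inner start sites at position 63666828 and 63665634, mostly in introns of the longest transcript. At the outermost start site, position 63674474, there were peaks in ATAC2 and ATAC5 alone, with 66 and 51 reads against 25 and 21 in Input and folds of 4.17 and 4.16. The RefSeq promoter of Ptch1 (GRCm38.p6), matched letter by letter to mm9, places the start 215 bases from the inner start site at 63666828.

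The best-ranked start-site peak of Ptch1 had 226, 261, 108, 61, 543, 294 and 107 reads in ATAC1 to ATAC7. The folds over Input were 6.46, 9.37, 2.94, 2.38, 9.79, 10.8 and 6.56. The fold was highest in ATAC6, ATAC5 and ATAC2 and lowest in ATAC4 and ATAC3. In 5 libraries this peak lay 740 to 855 bases upstream of the start site at 63666828, where the ATAC5 peak printed above lies. In ATAC3 and ATAC4 it lay 183 bases downstream and 4 bases upstream, and ATAC4 had a second peak at the upstream place with 85 reads, 15 in Input and a fold of 6.41. ATAC3 had no peak there. All 7 libraries had at least 1 Ptch1 start-site peak with a fold of 5 or more.

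A region within the gene, chr13:63668957-63669430 and intronic, was called in all 7 libraries and stood 2365 bases upstream of the inner start site. Its reads were 578, 537, 332, 324, 684, 909 and 376 in ATAC1 to ATAC7, against 55 to 67 in Input. The folds were 12.2, 13.7, 6.09, 6.55, 18.6, 21.4 and 6.69. In each library this fold was above that of the best-ranked start-site peak of the gene, and in ATAC2 the region stood within the top 6.65% of the list. Its ATAC2 peak, printed above, was 71.3% G and C with a CpG ratio of 1.12. Its level, in reads per 1000 bases of outer region and per 1000000 reads in the regions called in every library, ranged from 106 in ATAC5 (95% Poisson interval 97.8 to 114) to 185 in ATAC7 (167 to 205), which is another order than by fold. A single-library region at chr13:63653983-63654068, in an intron, had 86 reads in ATAC2 and a fold of 6.17.

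**Figure D2:**
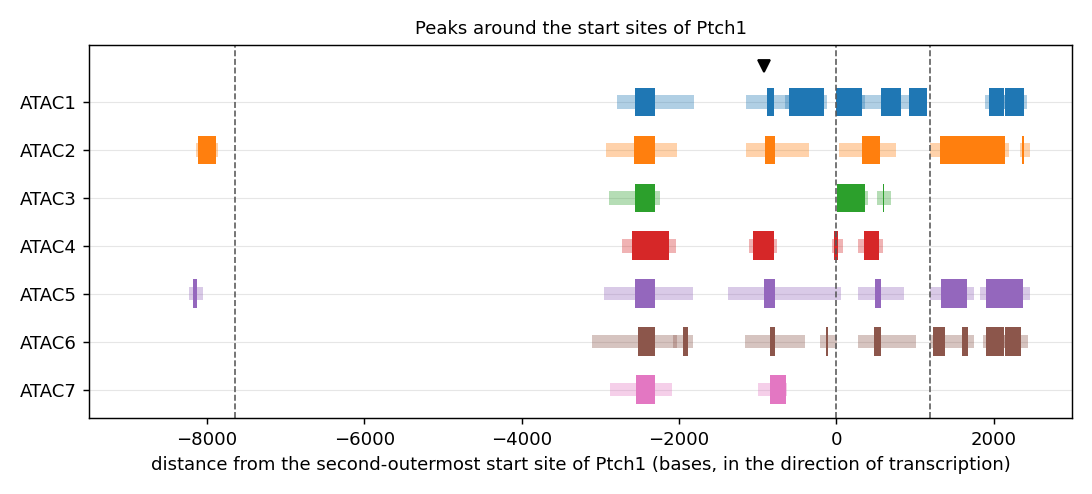
Peaks (dark bars) and the outer regions they were cut from (pale bars) around Ptch1 in each library, by distance in bases from its second-outermost start site. Dashed lines are annotated start sites and the triangle is the match to the GLI consensus upstream of the inner start site. The region 2365 bases upstream is filled in all 7 libraries, and the outermost start site has peaks in ATAC2 and ATAC5 alone.

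The letters GACCACCCA were found in 3 of the 87 merged regions near the 7 genes, or 3.45% (95% Wilson interval 1.18 to 9.65), against 130 of 50683 regions of the series, or 0.256%. Searched over the outer regions, the share stayed at 3.45% near the genes and was 0.511% over the series. Of the 3 regions, 2 were start-site regions of Ptch1, so they share a gene, and the shares are a description without a test. The first match, chr13:63667743-63667751 and 919 bases upstream of the inner start site, lay in a region called in all libraries but ATAC3. The outer regions of 6 libraries held it, and the narrower peaks of ATAC4 and ATAC5 did. Another match lay far upstream of Smo, 16617 bases from its start, in a region called in ATAC2 alone. The centre of that region was nearer to a start site of Tspan33, at 11127 bases, than to that of Smo, at 16539.
Smo, chr6:29669073-29669081 with 10 bases on either side, minus strand: acatggtgggGACCACCCAtgtggtagag

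The shorter core CCACCCA, which is contained in the longer motif, was in 14.9% of the regions near the genes and 9.7% of all regions. The GC box CCGCCC was in 46.0% of the regions near the genes and 30.4% of all. In windows of 250 bases before to 50 after each start site, GACCACCCA was in none of the 23 start sites of the 7 genes and in 0.236% of 70044 start sites of protein-coding genes. In those windows the GC box was in 65.2% and 40.3%. Neighbouring start sites share letters in these windows, so the 23 are not independent.

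Smo, which encodes the signalling membrane protein, lies at chr6:29685694-29711365 on the plus strand (ENSMUSG00000001761.6). Its start-site peaks were found in ATAC2, ATAC5 and ATAC6, with 85, 193 and 149 reads against 45, 79 and 65 in Input. The folds of these best-ranked peaks were 2.98, 4.18 and 3.61, low for lists with medians of 9.27, 10.9 and 10.1. They lay 574, 458 and 476 bases downstream of the start site, in an exon. ATAC5 had 2 further peaks nearer the start site, with folds of 5.99 and 8.38, and ATAC6 had 1, with a fold of 4.99, so a fold of 5 or more was reached in ATAC5 alone. The ATAC2 call was lost when each list was held to its best 15188 peaks and when a start-site peak had to lie within 500 bases, which left ATAC5 and ATAC6. ATAC1, ATAC3, ATAC4 and ATAC7 had no peak within 32 kb of the start site. The 3 libraries with a peak are the same in 413 protein-coding genes, or 1.85%.

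Within 50 kb of Smo, the region called in most libraries, chr6:29644109-29644238, is at the start site of the neighbour Tspan33 and was called in all but ATAC7, with folds of 2.33 to 6.58. Another region, chr6:29651188-29651321, lies in Tspan33 and was called in ATAC1 with a fold of 9.96 and in ATAC4 with 9.05. These regions are in or at another gene, and distance alone ties them to Smo. The region at chr6:29717693-29717951, with 159 reads in ATAC1, was 621 bases from a start site of Ahcyl2. The peak shared no base with others, but outer regions of all 7 libraries overlapped there. The body of Smo held no peak off its start site in any library.

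Sufu, the gene of the cytoplasmic inhibitor of GLI factors, lies at chr19:46471386-46563294 on the plus strand (ENSMUSG00000025231.9) and has 7 annotated start sites. Its start-site peak had 489, 261, 334, 370, 617, 648 and 287 reads in ATAC1 to ATAC7, against 38 to 45 in Input. The folds were 14, 10.8, 8.02, 9.97, 23.5, 22.7 and 7.54. Peak centres lay 56 to 75 bases upstream of the first start site in all 7 libraries, so this is the same place in each, printed above. It was the strongest start site of the 7 genes by rank in 6 libraries, standing within the top 8.51% of the list in ATAC6 and the top 18.7% in ATAC7, while in ATAC2 Gli3 ranked ahead of it.

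The Sufu level, in the same unit as above, was 212 in ATAC4 (95% Poisson interval 191 to 235), 189 in ATAC7, 185 in ATAC3, 166 in ATAC1, 164 in ATAC6, 158 in ATAC5 and 142 in ATAC2 (125 to 160). The intervals of each pair of neighbours in this order overlap, and the highest level was 1.5 times the lowest. By fold over Input the order differed, with ATAC5 and ATAC6 highest and ATAC7 lowest. A second peak in ATAC4 and ATAC5, 967 and 956 bases upstream, was nearer to the start site of Actr1a than to that of Sufu.

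Off the start sites, 3 regions lay in the body of Sufu, each called in at most 2 libraries. Past the 3' end of Sufu, 2 regions without a start site of their own were called in all 7 libraries. The one with more reads, chr19:46577922-46578992, lay in Trim8, with folds of 5.06 to 12.9. The other, chr19:46574401-46574506, was 1685 bases from a start site of Trim8 and had higher folds, 10.7 to 31.3, and a best rank within the top 9.41% of a list. A region in ATAC6 alone, chr19:46431383-46431493, was 9 bases from a start site of Tmem180, with 104 reads and a fold of 3.72. Of the 22 regions in or within 50 kb of Sufu, 7 were at start sites of other genes and 10 lay elsewhere outside the gene.

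**Figure D3:**
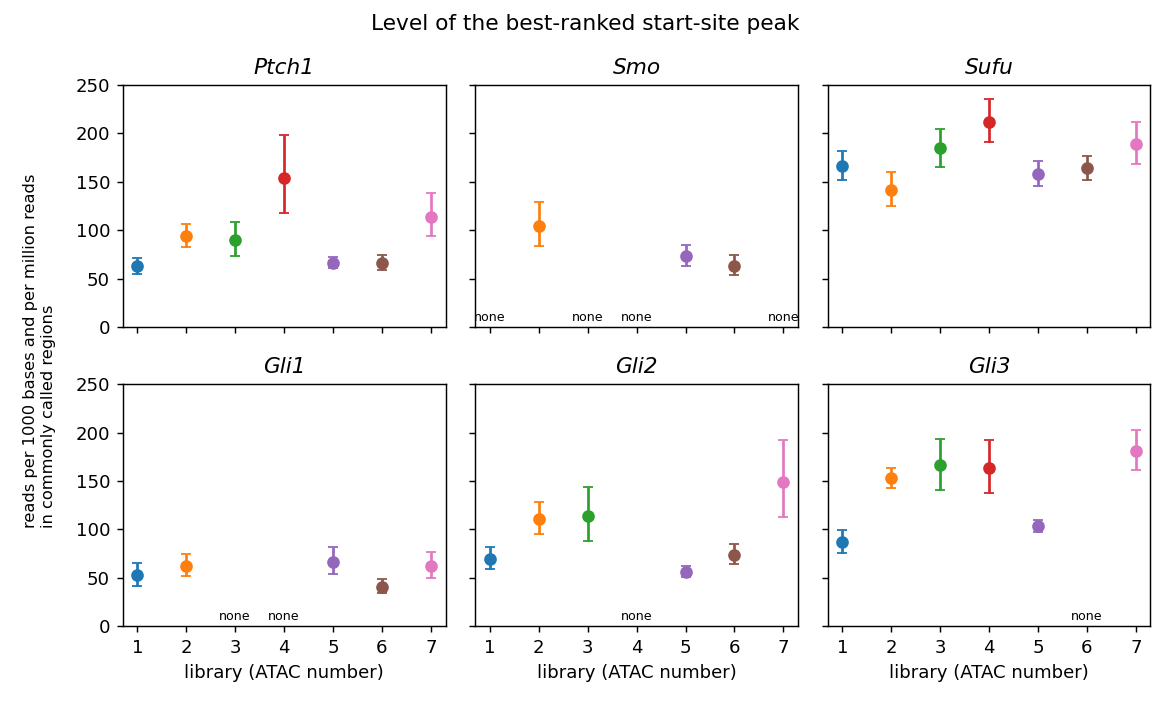
Level of the best-ranked start-site peak of 6 genes in each library, in reads per 1000 bases of outer region and per 1000000 reads in commonly called regions, with 95% Poisson intervals for counting error. Sufu lies between 142 and 212 in all libraries, and "none" marks libraries without a peak; Ihh has no value.

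Gli1, a target gene and effector of the pathway, lies at chr10:126766945-126778645 on the minus strand (ENSMUSG00000025407.5). Its best-ranked start-site peak had 83 reads in ATAC1, 121 in ATAC2, 90 in ATAC5, 136 in ATAC6 and 89 in ATAC7, against 11 to 24 in Input. The folds were 6.37, 7.96, 14, 8.92 and 4.09. ATAC3 and ATAC4 had no peak there, and their nearest peaks were 2141 and 2099 bases from a start site. These best-ranked peaks were centred 666 to 893 bases upstream of the outer start site, a further ATAC5 peak was centred 517 bases upstream, and none was centred within 500 bases of a start site. With a distance of 2500 bases Gli1 was called in all 7 libraries. Peaks of ATAC3 with a similar number of Input reads had a median fold of 5.96, and 5% of them fell below 3.18. In ATAC4 these values were 6.26 and 3.24. Why no peak was called there was not tested.

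By level, Gli1 ranged from 40.9 in ATAC6 (34.3 to 48.4) to 66.6 in ATAC5 (53.6 to 81.9). Each library's interval overlapped that of its neighbour in the order. An intronic region, chr10:126776065-126777090, was called in all 7 libraries, its centre 1796 bases from a start site, with 13 peaks and folds of 3.4 to 18.4. Its best-ranked peak per library had 110, 134, 126, 113, 161, 124 and 178 reads in ATAC1 to ATAC7. The folds of these peaks were 9.0, 14.1, 5.78, 4.26, 18.4, 13 and 4.57. Gli1 thus had a peak in its body in ATAC3 and ATAC4, the libraries without one upstream of it. This region was chosen for description after its values were seen.

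The window of Gli1 holds many other genes, and 8 of its 13 regions were at their start sites. The one called in most libraries with most reads, chr10:126727464-126727769, was 164 bases from a start site of RP24-341K21.6 and stood within the top 1.19% to 4.07% of each list. A region at chr10:126817966-126818125, with 337 reads in ATAC7, was 190 bases from a start site of R3hdm2. Its peak shared no base with those of other libraries, but its outer region overlapped outer regions of ATAC1 to ATAC5 at the same start site.

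Gli3, the gene of the factor that acts mainly as a repressor, lies at chr13:15555068-15821859 on the plus strand (ENSMUSG00000021318.9) and has 4 start sites within the first 1000 bases. Its best-ranked start-site peak had 228 reads in ATAC1, 901 in ATAC2 and 166 in ATAC3, and 144, 1129 and 297 reads in ATAC4, ATAC5 and ATAC7. Input had 62, 141, 45, 46, 147 and 69 reads in the same outer regions. The folds were 4.52, 10.1, 3.72, 3.54, 13.2 and 4.75. ATAC2 and ATAC5 were highest, and their outer regions, 1687 and 1917 bases long, spanned all 4 start sites, whereas the other libraries had 2 or 3 separate peaks there.

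ATAC6 had no peak at the Gli3 start sites, and its nearest peak was 102991 bases away from them. Of the 1097 protein-coding genes called in exactly 6 libraries, 56 lacked ATAC6, or 5.1%, while 401 lacked ATAC7 (36.6%) and 194 lacked ATAC4 (17.7%). ATAC6 had the most reads in commonly called regions, and its list of 28969 peaks ran through its ranks without a gap. Among the 10293 ATAC6 peaks with similar Input reads the median fold was 10.5, 5% lay below 3.79 and the lowest was 2.03. The lowest fold of a best-ranked Gli3 peak elsewhere was 3.54, and the lowest of any Gli3 start-site peak was 2.9, in ATAC4. The reads of ATAC6 at Gli3 are not in a peak list and were not analysed here, so how far below the threshold they lay was not tested.

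**Figure D4:**
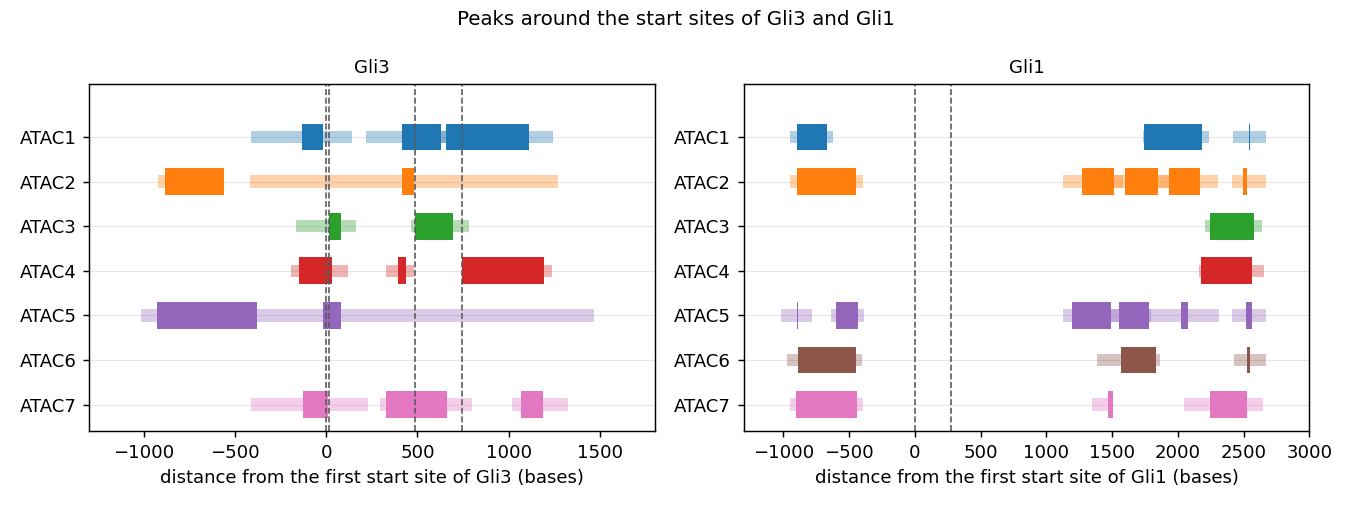
Peaks (dark bars) and their outer regions (pale bars) around the start sites of Gli3 (left) and Gli1 (right) in each library, by distance in bases from the first start site of each gene in the direction of transcription, with start sites as dashed lines. The row of ATAC6 is empty for Gli3, and ATAC3 and ATAC4 have no bar upstream of Gli1 but have one in its intron.

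Levels of Gli3 ran from 181 in ATAC7 (161 to 203), 166 in ATAC3, 163 in ATAC4 and 153 in ATAC2 to 103 in ATAC5 (97.4 to 110) and 87.0 in ATAC1 (76.0 to 99.0). The first 4 have overlapping intervals from neighbour to neighbour, as do the last 2, and ATAC2 and ATAC5 are apart. This order is not that of the folds. The level divides by the length of the outer region, which ran from 309 bases in ATAC4 to 1917 in ATAC5. The sequence at the 4 start sites was 69.7% to 71.3% G and C, with CpG ratios of 0.935 to 1.01. The stretch printed above holds the core CCACCCA once, on the opposite strand, and not the full GLI motif.

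Farther from its start sites, Gli3 had few peaks. In its body of 266792 bases there were 2 regions, 1 in ATAC2 and 1 in ATAC5. Past its 3' end, chr13:15850862-15851731 was called in ATAC1, ATAC2, ATAC3, ATAC5 and ATAC6, with folds of 4.03 to 10.3, and lay 247257 bases from the nearest start site of another gene, Gm17394. ATAC6, without a peak at the start sites, had one here with 155 reads against 25 in Input and a fold of 9.76. Upstream, chr13:15513382-15513717 was called in ATAC2 alone with 71 reads.

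Gli2, the gene of the main activator, lies at chr1:120730709-120950196 on the minus strand (ENSMUSG00000048402.8). Its best-ranked start-site peak had 153 reads in ATAC1, 183 in ATAC2, 69 in ATAC3, 327 in ATAC5, 202 in ATAC6 and 59 in ATAC7, against 51, 55, 24, 79, 55 and 22 in Input. The folds were 3.68, 5.26, 2.9, 7.09, 5.78 and 2.96, with ATAC5, ATAC6 and ATAC2 highest. All 6 were centred within 104 bases of the outermost start site. ATAC1, ATAC2, ATAC5 and ATAC6 also had peaks at the inner start site at position 120879165, with folds of 7.54 to 14.2.

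ATAC4 had no peak at Gli2, in its body or within 50 kb, and its nearest peak was 451089 bases from a start site. Lacking ATAC4 alone at this distance was seen in 270 protein-coding genes, or 1.21%. Off the start sites, the body of Gli2 held 13 regions, 9 of them in ATAC2, 8 in ATAC6, 6 in ATAC5, 3 in ATAC7, 1 in ATAC1 and 1 in ATAC3. This is the most of the 7 genes, and 7 of the 13 were called in 1 library.

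The intronic Gli2 region called in most libraries, chr1:120873172-120873661, had 68 reads in ATAC1, 463 in ATAC2, 88 in ATAC3, 423 in ATAC5, 307 in ATAC6 and 126 in ATAC7. The folds were 4.64, 14.6, 2.69, 14.2, 10.3 and 5.35. By reads and fold ATAC2, ATAC5 and ATAC6 stood above the other libraries. By level the order was another, with 168 in ATAC2, 147 in ATAC7, 89.4 in ATAC5, 88.5 in ATAC1, 86.5 in ATAC3 and 70.4 in ATAC6. In ATAC2 the region was within the top 7.74% of the list, ahead of the Gli2 start site at 25.3%. Of the single-library regions, chr1:120898308-120898383 in ATAC6 had the most reads, 100, and a fold of 8.74. An ATAC2 peak with 96 reads lay next to it, and their outer regions overlapped.

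By level, the Gli2 start site ran from 149 in ATAC7 (113 to 192), 114 in ATAC3 and 111 in ATAC2 to 73.6 in ATAC6, 69.8 in ATAC1 and 56.3 in ATAC5 (50.4 to 62.7). Only ATAC2 and ATAC6 were neighbours with separate intervals, at outer regions of 473 and 472 bases. Those of ATAC7, ATAC3 and ATAC5 were 155, 199 and 1019 bases long, and the level divides by this length. The Gli2 folds were lowest in ATAC3 and ATAC7, at 2.9 and 2.96, and highest in ATAC5, at 7.09. The Ptch1 levels ran from 154 in ATAC4 (118 to 198) to 62.7 in ATAC1 (54.8 to 71.4), where ATAC3 and ATAC5 were the one separate pair of neighbours. By fold ATAC4 was instead lowest, and the peaks of ATAC3 and ATAC4 lay at another place than those of the other libraries, as given above. Smo ran from 104 in ATAC2 (83.5 to 129) to 63.4 in ATAC6 (53.7 to 74.5), with no separate pair of neighbours. The outer region of ATAC4 at Ptch1 was 139 bases long against 1437 in ATAC5, and without the division by length the Ptch1 order turned, with ATAC5 highest and ATAC4 lowest.

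The 87 merged regions near the 7 genes comprised 22 at their own start sites, 19 at start sites of other genes, 23 in the genes and 23 elsewhere. Called in all 7 libraries were 9 of them and in 1 library 36, of which 17 had an outer region that overlapped one of another library. Of the 46 regions off any start site, ATAC1 held 30.4%, ATAC2 54.3%, ATAC3 15.2%, ATAC4 19.6%, ATAC5 52.2%, ATAC6 45.7% and ATAC7 19.6%. Over all 30406 such regions of the series these shares were 31.4%, 53.9%, 12.7%, 11.7%, 51.4%, 44.8% and 13.2%. The regions near the Hedgehog genes were divided among ATAC1, ATAC2, ATAC5 and ATAC6 much as in the whole series, and the shares of ATAC3, ATAC4 and ATAC7, from 7, 9 and 9 regions, were somewhat higher.

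Other genes of the pathway were taken from a list of 27, of which 26 were matched in the annotation. A start-site peak was found in all 7 libraries for 10, in none for 5 and in some for 11, beside 36.8% of all protein-coding genes called in all libraries and 43.4% in none. Per library, 14, 17, 12, 11, 20, 17 and 11 of the 26 had one in ATAC1 to ATAC7, or 53.8%, 65.4%, 46.2%, 42.3%, 76.9%, 65.4% and 42.3%. These shares were close to those over all genes in ATAC3, ATAC4 and ATAC7 and highest above them in ATAC5. With each list held to its best 15188 peaks the counts were 13, 13, 12, 11, 14, 14 and 11, and ATAC5 was then level with ATAC6. The shares of all protein-coding genes at that list length were 44.2%, 41.5%, 43.0%, 43.4%, 45.5%, 45.8% and 42.0%.

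**Figure D5:**
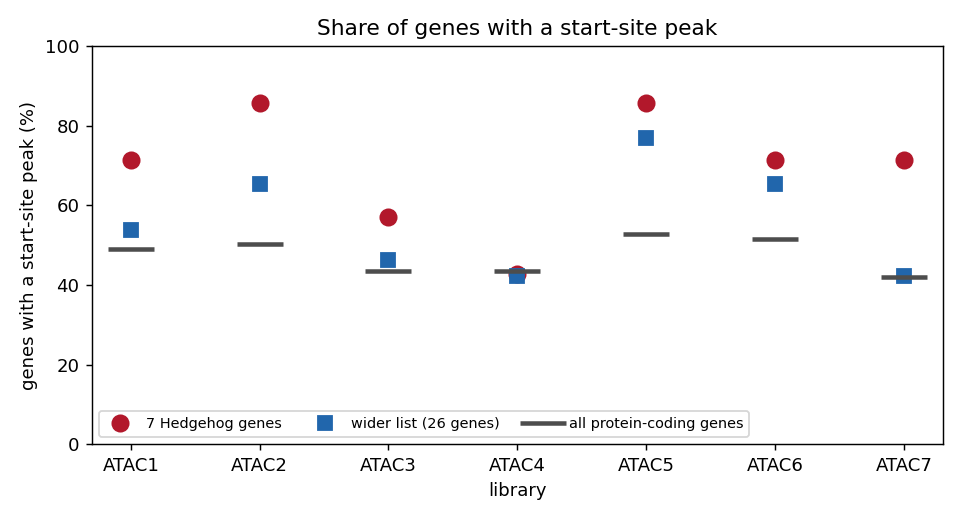
Share of genes with a start-site peak in each library, in percent, for the 7 Hedgehog genes (circles), the 26 genes of the wider list (squares) and all protein-coding genes (bars). The 3 marks lie together in ATAC4, and in ATAC5 the squares stand at 76.9% above a background of 52.7%.

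Among the regulators, 8 of 11 were called in all 7 libraries, as were 36.8% of all protein-coding genes. They were Kif3a and Ift88, which build the cilium, the kinase genes Prkaca, Gsk3b, Csnk1a1 and Adrbk1, and Btrc and Spop, which serve in the turnover of Gli proteins. Gsk3b had the highest folds of the list, 15.1 to 45.6. The ciliary regulators Kif7 and Gpr161 were called in none, and the kinase gene Stk36 had one in all but ATAC4 and ATAC7.

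Of the receptors and coreceptors, Cdon was called in all 7 libraries, with folds of 8.1 to 24.6, and Gas1 in all but ATAC4, with folds of 5.04 to 17.8. Boc was called in ATAC2, ATAC5 and ATAC6, as Smo was, with folds of 4.3 to 7.39. Hhip, which binds and sequesters ligands, was called in ATAC5 alone, with 106 reads and a fold of 4.22. For ligand processing, the acyltransferase gene Hhat was called in ATAC1, ATAC2, ATAC4, ATAC5 and ATAC6 and Scube2, a gene of ligand release, in ATAC2 and ATAC5.

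Of 6 target and partner genes, Bcl2 was called in all 7 libraries and Foxl1 in none. Pthlh, which encodes the parathyroid hormone-related protein that acts in a loop with Indian hedgehog in growth plate cartilage, was called in ATAC1, ATAC2, ATAC5 and ATAC6, with folds of 2.78 to 3.89. Pth1r, the gene of its receptor, was called in ATAC2, ATAC5 and ATAC6, with folds of 3.95 to 5.75. Ccnd1 was called in ATAC6 alone with 63 reads, and Foxf1a in ATAC5 alone with 176.

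Genes most like each member were sought among those with a start-site peak in exactly the same libraries. Likeness was the Euclidean distance in log2 fold of the best-ranked start-site peak, which grows with the number of libraries. For Gli3, 55 other genes had its 6 libraries, and the nearest were Rnls (0.40), Pm20d2 (0.50) and Yod1 (0.65). For Gli2, with 193 other genes over 6 libraries, they were Efs (0.21), Vangl2 (0.28) and Eps8 (0.31). For Gli1, with 145 over 5 libraries, they were Rab42-ps (0.54), Gng11 (0.57) and Mcts2 (0.58). Over 3 libraries Smo was most like Tnfrsf19 (0.12), Kcnn1 (0.12) and Kif19a (0.15), among 412. Over 7 libraries, among 8237, Sufu was nearest to Rapgef6 (0.14), 2210012G02Rik (0.18) and Tmem59 (0.18), and Ptch1 to Arhgef10 (0.72), Spopl (0.78) and Cuedc1 (0.81). These values describe likeness of fold patterns over few libraries.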

How the data were processed

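ATAC-seq of bone marrow stromal cells gave 7 libraries and an Input. Per the study's methods, the authors mapped reads to mm9 (Bowtie) and ran CisGenome on every library with Input as control, with a p-value limit of 1e-05, keeping an FDR below 0.01. A shift of reads for Tn5 and a duplicate filter are not given in the sources used here, and either could alter peak edges or read numbers. The deposited tables, which have no header, hold ranks (a score), each peak and its outer region, counts of library and Input reads in that region, and the authors' fold over Input, a ratio of scaled library reads to Input reads plus 0.01. The authors' ranking and window statistics are signal columns and are not reported. Recovered scale factors were 1.01 to 1.71. Positions are printed as deposited, and whether they count from 0 or 1 is not stated. The submitters' processing notes also name DiffBind and bedtools.

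The 7 genes and the wider list were chosen with earlier results of these data known. All are named except an entry of the wider list, which enters its counts but, like a sequence, is not reported here. Disp1 of the wider list was not matched in GENCODE vM1. For each gene, regions at its own start sites were set aside. Of the others, the merged region called in most libraries and the single-library region with most reads were named. Regions without a start site were added after their values were seen. Where a gene had several start-site peaks, the best-ranked one stood for it. Peaks sharing a base were merged. Peaks with similar Input reads had 0.8 to 1.25 times those of the gene's peaks elsewhere. G and C content was taken over 500 bases on either side of a start site. The start-site rule was run with scipy 1.17.1, pandas 2.3.3 and numpy 2.4.6 under Python 3.11.15. Simulated peaks placed within its distance of known start sites were all recovered, which checks the code alone. Alternatives varied the start-site distance, flank, fold minimum, list length, coordinates, Input filter, transcript type, scaling and motif.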

Additional observations from a re-analysis of the deposited data

How the results depend on the processing

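No paired analysis was possible because there are no replicate libraries to pair. Ptch1 and Sufu kept their start-site peak in all 7 libraries under every alternative except a distance of 500 bases, where Ptch1 lost ATAC7, and Ihh had none under any. At a fold of at least 5, 2 genes had one in ATAC3 and 3 in ATAC7, and at 500 bases 3 did in ATAC7, with Gli1 called nowhere. That fold left Gli3 in 3 libraries and Gli2 in 4, and at 2500 bases Gli1 was called in 7. Peaks near the genes fell to 25, 17 and 20 in ATAC1, ATAC3 and ATAC4 at a fold of at least 5. With each list held to its best 15188 peaks they fell to 30 in ATAC2 and 32 in ATAC5, and with a flank of 10 kb to 23, 34, 13, 15, 37, 29 and 17 in ATAC1 to ATAC7. The Smo call in ATAC2 ended at equal list length and at 500 bases. Counts for the wider list stayed within 1.5 times throughout, also with any base of a peak within 1000 bases, an alternative chosen after seeing the data. The Sufu level of ATAC4 over ATAC2, 1.5, became 0.923 by fold over Input and 2.01 per 1000000 reads in all peaks. For Ptch1, ATAC4 over ATAC1, 2.45, became 0.368 by fold and 0.446 without the division by length. The share with a GLI motif became 14.9% with the core alone. Of 169 comparisons, 149 kept within these limits. A gene without a peak was not called at this depth, and the cause was not tested.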
